A study of Saccharomyces cerevisiae with 36 samples.

Results

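The 26S proteasome is the protease that removes ubiquitin-tagged proteins from the cytosol and nucleus. Its core particle is a stack of alpha and beta rings whose inner beta subunits cut peptide bonds. Its regulatory particle caps the core, where the base, a ring of AAA ATPases with scaffold and ubiquitin-receptor subunits, unfolds substrates and the lid removes their ubiquitin. In yeast most of these genes share a promoter element bound by the transcription factor Rpn4, a short-lived protein that the proteasome itself degrades.

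The genes described here were chosen by name: RPN, RPT, PRE or PUP followed by digits, with *SCL1* for the remaining alpha subunit and *RPN4* as the activator. These were 34 of the 5697 genes counted: 14 core genes (7 of the alpha ring and 7 of the beta ring), 19 regulatory particle genes (6 ATPases and 4 other genes of the base, 8 of the lid, and *RPN14*) and *RPN4*. *RPN14* carries a regulatory particle name but encodes a chaperone that helps to assemble the base. One further row, an open reading frame that is also named *RPT1*, had 0 counts in all 36 libraries and was left out. All 34 genes passed the filter on low counts, and 33 of them are called subunit genes below, *RPN4* being treated apart.

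The libraries came from *Saccharomyces cerevisiae* FY4, a prototrophic laboratory strain, either wild-type or with *GAL80* deleted (*gal80Δ*). Gal80 holds the galactose activator Gal4 inactive, so the mutant expresses the galactose genes without galactose. After a pyruvate pre-culture, both strains grew in minimal Delft medium with 0.1% fructose, or with 0.1% fructose and 0.9% palatinose (fructose-palatinose), a disaccharide of glucose and fructose. Cells were harvested at mid-log and 10 and 16 hours later (+10h and +16h). Biological replicates, 3 in each of 12 groups, were lettered A to C. Optical density at harvest was 0.26 to 0.35 at mid-log and 1.45 to 1.8 at +10h; at +16h it was 2.6 to 2.8 for wild-type cells in fructose-palatinose and 1.8 to 2.1 in the other groups.

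Library totals ran from 6020770 to 11785148 counts. *GAL80* stood at 45.9 to 117 CPM (counts scaled to a common library size) in the 18 wild-type libraries and at 8.10 to 17.2 CPM in the 18 *gal80Δ* libraries, so the strain labels and the transcript did not conflict. The library farthest from its group over all genes was replicate B of wild-type cells in fructose at +10h, with a mean absolute deviation of 0.301 on the log2 scale. Ratios, and calls of the main edgeR fit, that turned on it are given with and without it. Unless another unit is named, levels below are CPM scaled by TMM, edgeR's trimmed-mean normalisation. The libraries were primed at transcript 3′ ends, so levels were not divided by gene length, and overlaps at that end are given where they bear on a gene. A gene was called where edgeR's quasi-likelihood test gave a Benjamini-Hochberg adjusted p below 0.05 over the 5479 genes tested and the log2 fold change exceeded 0.5 in size.

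The promoter windows of the subunit genes shared a sequence that the choice by name did not use. A window ran from 250 bases before to 50 after the RefSeq gene start in build R64, and both strands were searched. The proteasome-associated control element GGTGGCAAA, the site that Rpn4 binds, was found in 27 of 33 subunit windows (81.8%) against 72 of all 6001 windows (1.20%). The core held it in 12 of 14 windows and the regulatory particle in 15 of 19. The element lay 75 to 174 bases before the gene start, with a median of 111, and read along the gene in 19 cases and against it in 8. The 25 bases around it are shown for 6 of the genes whose values are given below, 5′ to 3′ with the element in capitals, to let the flanks be compared.
*PRE2* (chrXVI:732186-732210, plus strand): agcaaaagGGTGGCAAAacgaagaa
*PRE3* (chrX:435037-435061, plus strand): cggaatccGGTGGCAAAaaagggaa
*RPN11* (chrVI:153261-153285, plus strand): acctccaaGGTGGCAAAttcacaag
*RPT1* (chrXI:174050-174074, minus strand): agttttcgGGTGGCAAAattcggta
*RPT6* (chrVII:411354-411378, minus strand): gcgagcgaGGTGGCAAAagttgtaa
*RPN3* (chrV:196845-196869, minus strand): ctttcttgGGTGGCAAAtgtttttc
In these 6 the base after the element was an a or a t, and the base before it was an a, a c or a g.

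The 6 subunit windows without the full element were those of *PRE5*, *PUP1*, *RPN8*, *RPN10*, *RPN13* and *RPN14*. Its first 6 letters, GGTGGC, which every full match also contains, were present in *RPN10* and *RPN13* as well, giving 29 of 33 subunit windows against 6.93% of all windows. The stress response element AGGGG, bound by Msn2 and Msn4, was in 8 of 33 subunit windows (24.2%) and in 21.6% of all windows. A match is a run of letters and not a measured binding site.

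*RPN4* itself had no GGTGGCAAA in its window. It held 1 match to the heat shock element, the motif of Hsf1, which occurred in 11.7% of all windows and in 3 of 33 subunit windows. The match lay 7 bases before the gene start. No match to the Pdr1/Pdr3 element CCGCGG or the Yap1 element TTACTAA lay in this window. The counted *RPN4* interval reaches base 416952 and the window ends at 416958, so nearly all of the window lies within the counted transcript. Bases farther upstream were not searched, so the window does not show which sites the *RPN4* promoter has or lacks. The *RPN4* window (chrIV:416659-416958, minus strand), with the heat shock match in capitals, and the *RPT6* window (chrVII:411237-411536, minus strand), with GGTGGCAAA in capitals, are shown because these genes changed in opposite directions in every culture condition.
*RPN4*: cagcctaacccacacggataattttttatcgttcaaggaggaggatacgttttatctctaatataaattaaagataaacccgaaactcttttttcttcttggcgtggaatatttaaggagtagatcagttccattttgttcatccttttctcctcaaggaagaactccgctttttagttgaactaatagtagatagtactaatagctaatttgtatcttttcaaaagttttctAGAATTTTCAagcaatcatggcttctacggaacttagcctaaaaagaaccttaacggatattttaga
*RPT6*: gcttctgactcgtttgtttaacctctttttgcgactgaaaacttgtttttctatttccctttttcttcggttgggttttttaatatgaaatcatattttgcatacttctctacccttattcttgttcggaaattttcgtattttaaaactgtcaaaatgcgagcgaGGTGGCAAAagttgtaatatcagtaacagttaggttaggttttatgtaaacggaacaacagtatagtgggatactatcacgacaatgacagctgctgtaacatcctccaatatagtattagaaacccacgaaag

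Between mid-log and +10h transcripts of the activator rose, while none of the 33 subunit genes was called higher. *RPN4* rose in both strains and both media. In bulk RNA, fewer cells with a transcript and less of it per cell cannot be told apart. Of the subunit genes, 2 to 9 were called lower, a share at or below that of all genes in 3 of the 4 comparisons. The ATPase gene *RPT6* was the only subunit gene called lower in all 4, and the share of all genes called lower in all 4 was not counted.

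*RPN4* (chrIV:414953-416952 as counted, minus strand) had the following levels. In wild-type fructose cultures it stood at 56.9, 37.8 and 33.0 CPM at mid-log and at 143, 56.5 and 172 CPM at +10h in replicates A, B and C. In wild-type fructose-palatinose cultures it went from 52.6, 52.3 and 34.6 CPM to 108, 128 and 130 CPM. The +10h libraries lay above the mid-log ones in both media except replicate B in fructose, the library noted above, whose 56.5 CPM fell just under the highest mid-log value. In *gal80Δ* fructose cultures *RPN4* went from 65.8, 51.1 and 52.8 CPM to 150, 224 and 165 CPM. In *gal80Δ* fructose-palatinose cultures it went from 51.9, 52.5 and 59.7 CPM to 175, 161 and 145 CPM. In the mutant every +10h library was more than 2 times as high as every mid-log library of its medium.

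On the log2 scale *RPN4* rose by 1.54 ± 0.26 (SE, n = 3 against 3; edgeR adjusted p = 5.46e-06) in wild-type fructose and by 1.39 ± 0.26 (edgeR adjusted p = 3.53e-05) in wild-type fructose-palatinose. The rise was 1.67 ± 0.25 (edgeR adjusted p = 1.69e-06) in *gal80Δ* fructose and 1.55 ± 0.25 (adjusted p = 5.20e-06) in *gal80Δ* fructose-palatinose. Many genes rose over this step: in the same order, 29.1%, 24.5%, 28.9% and 27.4% of all genes were called higher. A change as high as that of *RPN4* was seen in 9.53%, 8.96%, 7.36% and 7.25% of all genes. Without replicate B of wild-type fructose +10h the first value was 1.86 (edgeR adjusted p = 5.17e-09). Leaving out replicate C, which had the lowest mid-log value in both wild-type media, gave 1.07 (edgeR adjusted p = 0.00861) in wild-type fructose. In wild-type fructose-palatinose it gave 1.17 (edgeR adjusted p = 0.00703). Over 41 alternative fits of these 4 comparisons the log2 fold change of *RPN4* lay between 1.07 and 1.94 and was called in all of them. The last 300 bases of the counted *RPN4* interval overlap *GPM2* on the opposite strand over 122 bases, and whether counting used strand is not given in the sources used here.

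**Figure D1:**
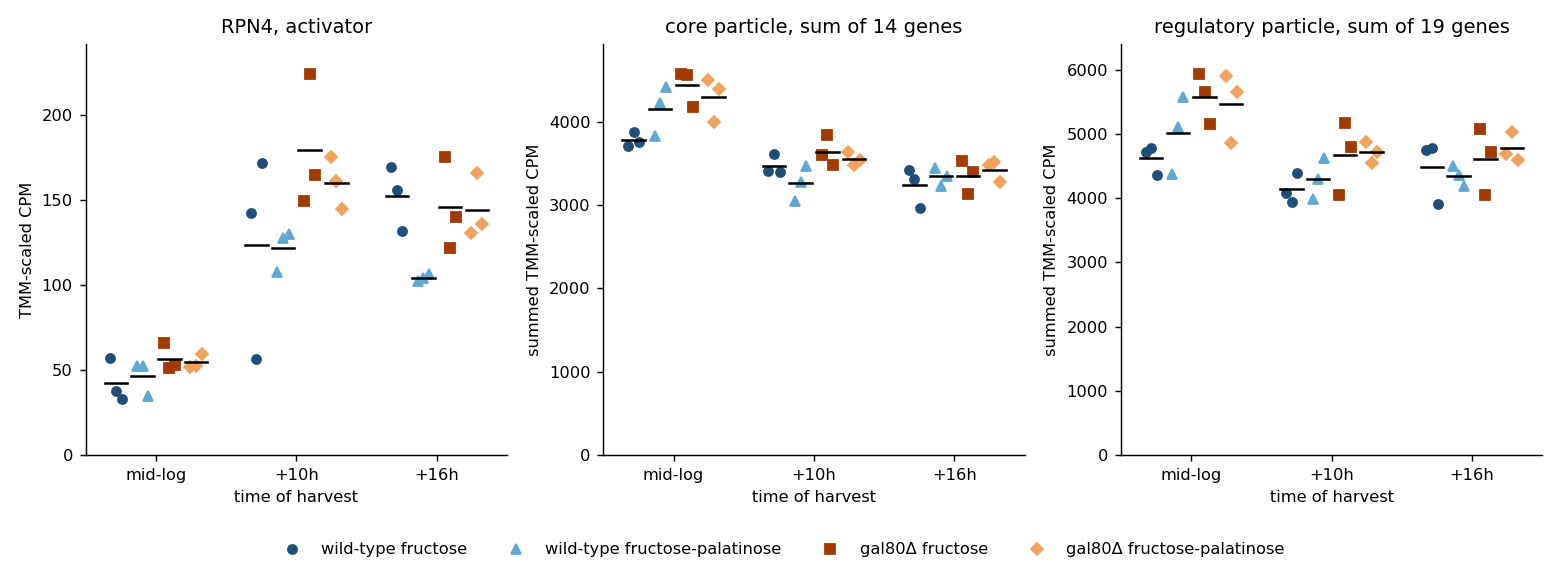
*RPN4* (left), the sum of the 14 core genes (middle) and the sum of the 19 regulatory particle genes (right) in each of the 36 libraries, in TMM-scaled CPM, by time of harvest; each symbol is 1 library, colours and shapes give strain and medium, and short lines are group means. *RPN4* lay between 33.0 and 65.8 CPM at mid-log and between 56.5 and 224 CPM at +10h, whereas the summed core stayed between 2967 and 4568 CPM throughout.

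After +10h *RPN4* stayed near its new level. At +16h it stood at 169, 156 and 132 CPM in wild-type fructose and at 102, 104 and 107 CPM in wild-type fructose-palatinose. In *gal80Δ* it stood at 176, 122 and 140 CPM in fructose and at 131, 166 and 136 CPM in fructose-palatinose. The 3 wild-type fructose-palatinose libraries were the lowest of the 12 at +16h and overlapped none of the others. The log2 difference between media in wild-type cells at +16h was -0.55 ± 0.25 (edgeR adjusted p = 0.192), which missed the threshold. It was called when only the groups compared were fitted (-0.57, edgeR adjusted p = 0.0125) and in no other alternative. The step from +10h to +16h was not called for *RPN4* in any of the 4 conditions, with log2 fold changes from -0.30 to 0.30. The strains did not differ past the threshold for *RPN4* at any time: the largest difference was 0.54 ± 0.25 at +10h in fructose (edgeR adjusted p = 0.170), and it was 0.20 without the wild-type replicate B library.

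None of the 33 subunit genes was called higher at +10h by edgeR in any condition; none had an unadjusted p below 0.05 in that direction, and DESeq2 called none higher. In wild-type fructose 2 were called lower (6.06% of subunit genes, against 26.0% of all genes). In wild-type fructose-palatinose 7 were called lower (21.2%, against 21.2% of all genes), in *gal80Δ* fructose 9 (27.3%, against 23.7%) and in *gal80Δ* fructose-palatinose 4 (12.1%, against 23.2%). These shares were near or below the background, so the number of calls is no result about the subunit genes. Without a minimum on the fold change 8, 13, 16 and 12 subunit genes fell at an edgeR adjusted p below 0.05, which was 24.2%, 39.4%, 48.5% and 36.4% of them against 30.1%, 25.9%, 27.8% and 27.5% of all genes. None rose, against 27.7% to 33.0% of all genes. In wild-type fructose 4 were called lower, with the fold minimum, when replicate B at +10h was left out.

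The log2 fold changes of the subunit genes had an SD of 0.25 to 0.29 within a condition, against 1.03 to 1.24 over all genes. Their median was -0.19 in wild-type fructose, -0.34 in wild-type fructose-palatinose, -0.33 in *gal80Δ* fructose and -0.32 in *gal80Δ* fructose-palatinose, while the median of all genes was 0.02 to 0.06. Below the median of all genes lay 26, 30, 30 and 28 of the 33.

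The normalisation sets the zero of these changes. Scaled by library size alone, the median of all genes moved up to 0.28 to 0.38, *RPN4* rose by 1.66 to 1.94, no subunit gene was called lower in any condition, and *RPN5*, *PUP2* and *RPN8* were called higher in wild-type fructose. All-gene calls then stood at 2301 higher and 837 lower in wild-type fructose, 1929 and 654 in wild-type fructose-palatinose, 2192 and 838 in *gal80Δ* fructose, and 2178 and 744 in *gal80Δ* fructose-palatinose. With TMM they had been 1596 and 1427, 1342 and 1161, 1585 and 1301, and 1499 and 1270. Relative to the median of all genes, the subunit median was lower by much the same amount under both: the gap was -0.20, -0.36, -0.39 and -0.36 with TMM and -0.20, -0.38, -0.39 and -0.36 with library size. The fall of single subunit genes is therefore given as relative to the bulk of transcripts.

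*RPT6* (chrVII:409852-411314 as counted, minus strand) encodes one of the ATPases that drive unfolding. It is shown because it was the member called lower in all 4 conditions, a choice made after its values were seen. It stood at 271, 260 and 292 CPM at mid-log and 171, 188 and 162 CPM at +10h in wild-type fructose, and at 277, 229 and 337 CPM and then 188, 201 and 190 CPM in wild-type fructose-palatinose. In *gal80Δ* it stood at 241, 269 and 359 CPM and then 226, 160 and 197 CPM in fructose, and at 291, 294 and 276 CPM and then 182, 214 and 170 CPM in fructose-palatinose. With TMM no +10h library reached the mid-log libraries of its own condition. The log2 fold changes were -0.66, -0.54, -0.58 and -0.61, each ± 0.16, with edgeR adjusted p of 0.000863, 0.00612, 0.00305 and 0.00210. With library size alone they were -0.29 to -0.31 and not called. *RPT6* stayed at 150 to 244 CPM over the 12 libraries at +16h.

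Of the 33 subunit genes, 23 were called lower in no condition, 2 in 1, 5 in 2, 2 in 3 and 1 in 4. The genes called in 3 conditions were *PRE9*, an alpha-ring subunit, with -0.32 to -0.58, and *RPN1*, the large scaffold of the base that receives ubiquitin carriers, with -0.40 to -0.70, whose call in wild-type fructose was lost without replicate B at +10h (-0.49). *PRE1*, *PRE2*, *PRE8*, *RPN10* and *SCL1* were called in 2 and *PRE10* and *RPN12* in 1. The 10 genes called at least once were 6 of 14 core and 4 of 19 regulatory genes. In 21 of 33 the log2 fold change was negative in all 4 conditions. The shares of all genes called lower this often, or negative in all 4, were not counted. These counts over conditions are therefore no result about the subunit genes. The members called just past the fold minimum, such as *RPN1* in wild-type fructose at -0.50 (edgeR adjusted p = 0.0427), differed little from those just short of it, such as *RPN6* in *gal80Δ* fructose at -0.50, which was not called.

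**Figure D2:**
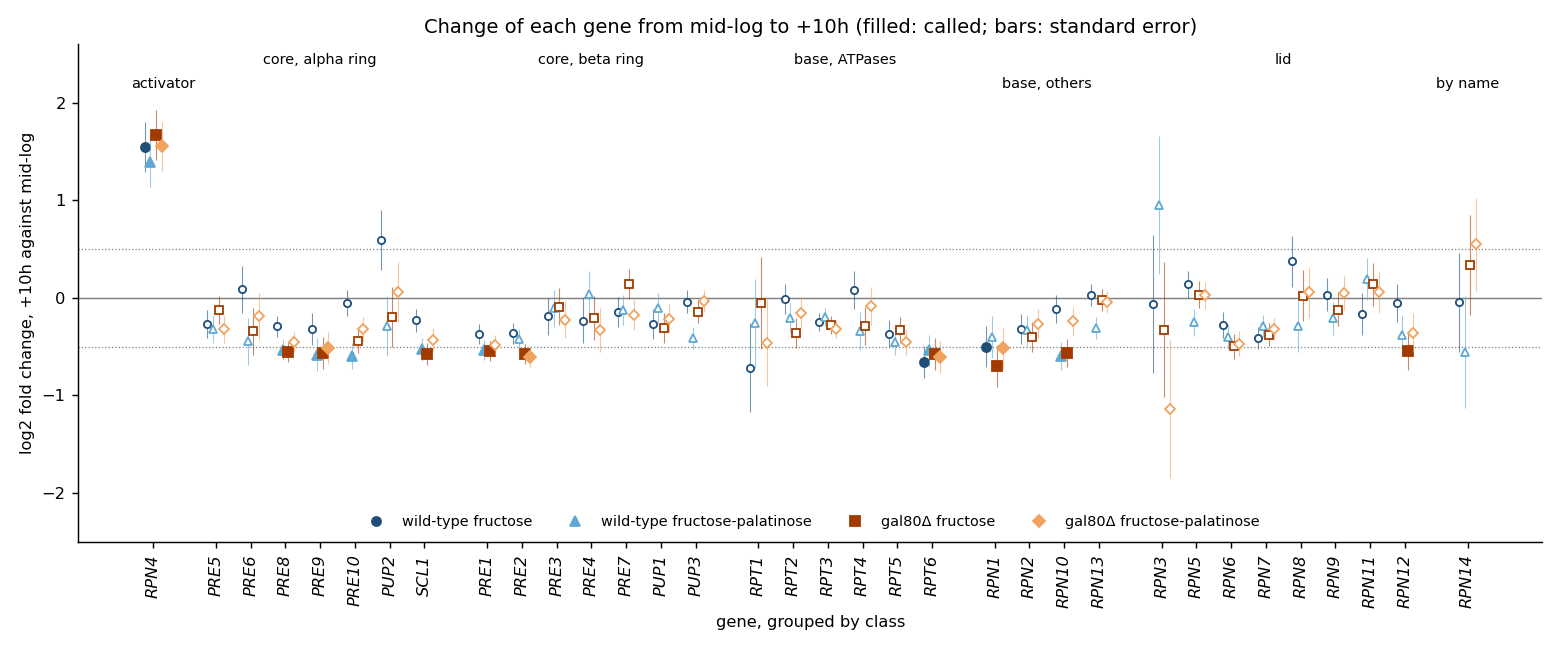
Log2 fold change from mid-log to +10h of the 34 genes, grouped by class, in the 4 combinations of strain and medium; bars are standard errors, filled symbols were called and open ones were not, and dotted lines mark ±0.5. *RPN4* lay between 1.39 and 1.67 in all 4, *RPT6* between -0.66 and -0.54, and no subunit gene was called higher.

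Of the subunits that carry the active sites, *PRE2* (chymotrypsin-like) fell relative to the bulk of transcripts and the others were not called. *PRE2* went from 270, 267 and 257 CPM to 191, 233 and 192 CPM in wild-type fructose and from 276, 270 and 303 CPM to 201, 217 and 214 CPM in wild-type fructose-palatinose. In *gal80Δ* it went from 278, 311 and 334 CPM to 233, 184 and 202 CPM in fructose and from 316, 307 and 321 CPM to 196, 218 and 205 CPM in fructose-palatinose. With TMM the mid-log and +10h libraries did not overlap in any condition. It was called in *gal80Δ*, at -0.58 ± 0.10 in fructose (edgeR adjusted p = 2.33e-05) and -0.61 ± 0.10 in fructose-palatinose (adjusted p = 1.17e-05). In wild-type the changes of -0.37 and -0.43, with adjusted p of 0.00315 and 0.00101, passed on p but not on the fold minimum; without replicate B at +10h the first was -0.50 and called. With library size alone *PRE2* was called lower in no condition, and its wild-type fructose libraries overlapped between mid-log and +10h. At +16h *PRE2* stood at 169 to 227 CPM. *FHL1* covers 205 of the last 300 bases of its counted interval on the opposite strand.

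*PRE3*, the caspase-like subunit, had values that overlapped between mid-log and +10h in wild-type fructose (405, 353 and 384 CPM against 372, 332 and 299 CPM). They also overlapped in *gal80Δ* fructose, where replicate C at mid-log stood at 602 CPM beside 369 and 396 CPM and replicate A at +10h at 541 CPM beside 354 and 386 CPM. In fructose-palatinose it went from 418, 359 and 402 CPM to 333, 400 and 361 CPM in wild-type and from 439, 491 and 413 CPM to 355, 450 and 344 CPM in *gal80Δ*. Its log2 fold changes ran from -0.23 to -0.09 and its SE was 0.19. At +16h it stood at 263 to 445 CPM.

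*PUP1*, the trypsin-like subunit, whose window lacks GGTGGCAAA, stood at 336, 294 and 259 CPM at mid-log and 233, 228 and 276 CPM at +10h in wild-type fructose. In wild-type fructose-palatinose it stood at 269, 343 and 336 CPM and then at 226, 330 and 324 CPM. In *gal80Δ* it went from 392, 373 and 341 CPM to 262, 322 and 311 CPM in fructose and from 390, 312 and 400 CPM to 319, 307 and 325 CPM in fructose-palatinose. With TMM only *gal80Δ* fructose separated the times, and no change was called, with log2 fold changes from -0.31 to -0.11. At +16h its levels were 228 to 360 CPM.

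The levels of the other subunit genes are given by their mean over the 36 libraries. In the alpha ring, which gates entry to the core, these ran from 102 CPM for *PRE8* to 401 CPM for *PRE5*, and in the beta ring from 82.7 CPM for *PRE4* to 391 CPM for *PUP3*. In the base, *RPN2* and *RPN1*, the large scaffolds, had 565 and 392 CPM, above the ubiquitin receptors *RPN13* at 192 CPM and *RPN10* at 156 CPM. In the lid the means ran from 79.6 CPM for *RPN12* to 744 CPM for *RPN11*. *RPT3*, an ATPase, was the narrowest of the 33, with 121 to 172 CPM over all libraries, a range of 1.42-fold. Opposite-strand neighbours covered all of the last 300 bases of *PUP2*, *SCL1*, *RPT4*, *RPN9* and *RPN10*.

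By ring and subcomplex the medians from mid-log to +10h followed no common order. The alpha ring had medians of -0.23, -0.53, -0.44 and -0.32 and the beta ring of -0.23, -0.12, -0.21 and -0.23, in the order wild-type fructose, wild-type fructose-palatinose, *gal80Δ* fructose and *gal80Δ* fructose-palatinose. The base ATPases had -0.31, -0.30, -0.31 and -0.39, the other base genes -0.22, -0.37, -0.48 and -0.26 and the lid -0.06, -0.27, -0.22 and -0.15. The lid had the median nearest to 0 in wild-type fructose and *gal80Δ* fructose-palatinose, and the beta ring in the other conditions. Genes with and without GGTGGCAAA had medians of -0.23 and -0.08, -0.34 and -0.31, -0.34 and -0.07, and -0.32 and -0.13, where 27 genes stand against 6 and no test was made.

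The core and the regulatory particle were compared by the summed levels of their genes in each library. The core summed to 3713 to 4568 CPM at mid-log, 3049 to 3844 CPM at +10h and 2967 to 3527 CPM at +16h. The regulatory particle summed to 4358 to 5928, 3943 to 5171 and 3911 to 5072 CPM. At +16h every core sum lay under every mid-log one, while the regulatory sums overlapped. This separation was present with TMM only: scaled by library size, core sums were 3031 to 4350 CPM at mid-log and 3069 to 3925 CPM at +16h, which overlap, and the wild-type fructose mean was 3262 CPM at mid-log and 3387 CPM at +16h. The ratio of the sums does not depend on the scaling.

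The ratio of core to regulatory sums stayed within a narrow range over all 36 libraries, from 0.693 to 0.916. In wild-type fructose the means of 3 libraries with their SD, in order of time, were 0.819 ± 0.038, 0.842 ± 0.072 and 0.724 ± 0.033. In wild-type fructose-palatinose it was 0.831 ± 0.041, 0.759 ± 0.0083 and 0.770 ± 0.030. In *gal80Δ* fructose the means were 0.796 ± 0.022, 0.786 ± 0.089 and 0.730 ± 0.040, and in *gal80Δ* fructose-palatinose 0.787 ± 0.031, 0.754 ± 0.010 and 0.717 ± 0.023. The wild-type fructose value at +10h, and the highest ratio of all, came with replicate B (0.916). Without it that mean was 0.805, from libraries at 0.837 and 0.773, and lay below the mid-log mean instead of above it. In *gal80Δ* fructose at +10h replicate A stood at 0.888, beside 0.743 and 0.727 in B and C. Its mean absolute deviation over all genes was 0.263 on the log2 scale, and no mean was taken without it. The mean at +16h was below that at mid-log in all 4 conditions. As a score over chosen genes the ratio has no p.

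On the log2 scale the ratio changed from mid-log to +16h by -0.18 in wild-type fructose, -0.11 in wild-type fructose-palatinose, -0.13 in *gal80Δ* fructose and -0.13 in *gal80Δ* fructose-palatinose, where the SD between replicates was 0.05 to 0.07. *PRE5* and *RPN11* were the most abundant genes of the classes. Without them the changes were -0.08, -0.05, -0.11 and -0.10 in the same order. The *RPN3* gene, which varied widely between replicates, entered the regulatory sum, and without it the changes were -0.16, -0.09, -0.12 and -0.15.

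**Figure D3:**
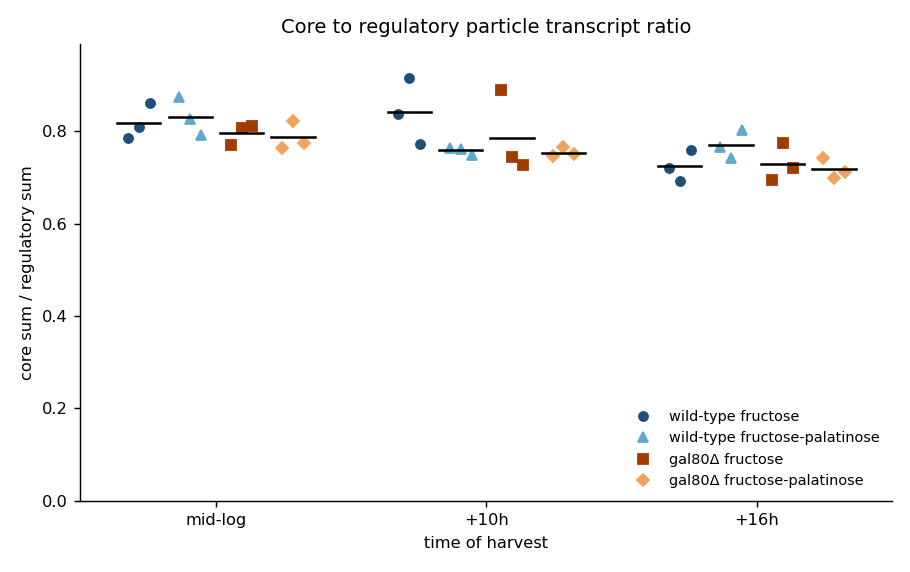
Ratio of the summed core genes to the summed regulatory particle genes in each library by time of harvest; symbols are libraries, colours and shapes give strain and medium, and short lines are means of 3. Mid-log libraries lay between 0.763 and 0.874 and +16h libraries between 0.693 and 0.802, so the ranges overlap.

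From +10h to +16h no subunit gene was called by edgeR in any condition, where 11.1%, 1.59%, 9.27% and 8.60% of all genes were called in wild-type fructose, wild-type fructose-palatinose, *gal80Δ* fructose and *gal80Δ* fructose-palatinose. At an unadjusted p below 0.05 stood 8, 1, 4 and 3 subunit genes. DESeq2 called 1 in wild-type fructose, *RPN11*, and 0 in the others.

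Palatinose made no called difference to a subunit gene in either strain at any time by edgeR. In wild-type cells 0.128%, 11.6% and 6.19% of all genes were called at mid-log, +10h and +16h, and in *gal80Δ* 0.128%, 0.146% and 0.128%. Unadjusted p was below 0.05 for 0, 4 and 2 subunit genes in wild-type and for 0 at each time in *gal80Δ*. DESeq2 called 1, *RPN11* in wild-type at +10h, and no other.

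Between strains 1 subunit gene was called by edgeR, *RPN11*, higher in *gal80Δ* in fructose at +10h, where 7.50% of all genes were called. At mid-log and +16h in fructose 0 were called (7.15% and 5.97% of all genes). With palatinose none was called at any time, where 8.01%, 14.3% and 12.8% of all genes were called in order of time. The unadjusted p was below 0.05 for 6, 3 and 3 subunit genes in fructose and for 0, 2 and 2 in fructose-palatinose. DESeq2 called 1, again *RPN11* in fructose at +10h. In fructose at mid-log 30 of 33 subunit genes lay above the median of all genes in *gal80Δ* against wild-type, and their own median exceeded it by 0.21. In the other 5 comparisons of the strains this gap was 0.00 to 0.11, and it was 0.05 in fructose-palatinose at mid-log. Palatinose against fructose in wild-type at mid-log uses the same wild-type fructose group. There the gap was 0.09, and 4 of 33 subunit genes lay below the median of all genes. Whether the gap belongs to the strain or to that shared group was not tested.

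*RPN11* encodes the deubiquitinase of the lid, which cuts ubiquitin chains from substrates, and had the highest mean level of the subunit genes. *SAD1* covers 140 of its last 300 bases on the opposite strand. In fructose at +10h it stood at 614, 293 and 695 CPM in wild-type and at 799, 914 and 984 CPM in *gal80Δ*. The strains did not overlap, and the wild-type replicate B library stood apart at 293 CPM, the lowest of all 36. The log2 difference was 0.75 ± 0.22 (edgeR adjusted p = 0.0252). Without that library it was 0.47 (edgeR adjusted p = 0.173) and not called, and it was not called either without replicate A, B or C (0.44 to 0.94) or with only the groups compared fitted.

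In the other comparisons the main edgeR fit called no difference in *RPN11*. DESeq2 called it higher with palatinose in wild-type at +10h (0.58, DESeq2 adjusted p = 0.0470). It also called it higher at +16h than at +10h in wild-type fructose (0.63, DESeq2 adjusted p = 0.0294), as did edgeR with no filter or with at least 10 counts in every library. Both comparisons use the wild-type fructose +10h group with its replicate B library, and DESeq2 was not fitted without that library. At mid-log it stood at 627, 648 and 521 CPM in wild-type fructose, 669, 795 and 614 CPM in wild-type fructose-palatinose, 826, 849 and 779 CPM in *gal80Δ* fructose and 806, 768 and 857 CPM in *gal80Δ* fructose-palatinose. At +10h in fructose-palatinose it stood at 586, 885 and 910 CPM in wild-type and at 777, 858 and 901 CPM in *gal80Δ*. The +16h levels were 565 to 986 CPM. The wild-type fructose libraries at mid-log all lay below the *gal80Δ* ones (log2 difference 0.45, edgeR adjusted p = 0.223).

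The difference between strains in the effect of palatinose was called for 0 subunit genes at mid-log, +10h and +16h by edgeR, against 0%, 0.803% and 1.53% of all genes. The unadjusted p was below 0.05 for 0, 3 and 1 of them, and DESeq2 called 0. The difference between media in the change over a time step was called for 0 subunit genes in wild-type (3.10% of all genes from mid-log to +10h and 1.41% from +10h to +16h) and in *gal80Δ* (0.0183% and 0%). Here the unadjusted p was below 0.05 for 4, 8, 0 and 0, and DESeq2 called 1, *PRE8*, from +10h to +16h in wild-type. That comparison includes replicate B of wild-type fructose +10h, without which DESeq2 was not fitted. *RPN4* was called in none of these 7 comparisons.

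The most extreme fold changes among the subunit genes were mostly those of *RPN3*, a lid subunit, and none was called in the fit of all libraries. It reached 1.24 ± 0.71 (edgeR adjusted p = 0.288) between strains in fructose-palatinose at mid-log and -1.14 ± 0.70 (adjusted p = 0.164) from mid-log to +10h in *gal80Δ* fructose-palatinose. Its lowest value between strains, -0.85 ± 0.70 in fructose-palatinose at +10h (edgeR adjusted p = 0.439), was called only when the groups compared were fitted alone (-0.86, edgeR adjusted p = 0.00870). Between media its highest value was 0.99 ± 0.70 in wild-type at +10h. The lowest there was -0.60 ± 0.52, of *RPN14*. In the difference between strains in the effect of palatinose at +10h, *RPN14* had the highest value, 0.78 ± 0.71, and *RPN3* the lowest, -1.49 ± 0.99. In the difference between media over time *RPN3* had both, 1.01 and -1.01 in wild-type.

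The replicates of *RPN3* disagreed within groups. It stood at 179, 35.6 and 6.84 CPM in wild-type fructose at mid-log, at 92.5, 114 and 9.77 CPM in wild-type fructose-palatinose at mid-log and at 85.9, 8.01 and 117 CPM in wild-type fructose at +10h. In the 33 libraries other than those at 6.84, 9.77 and 8.01 CPM it ran from 35.6 to 201 CPM. Its within-group SD was 1.11 on the log2 scale, at the 99.7th percentile of 5479 genes.

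The gene *SSA2*, a cytosolic Hsp70, was low in the same libraries: 99.8, 96.4 and 20.6 CPM there, against 222 to 1236 CPM in the other 33. It was picked after seeing these values, and its part in the *RPN3* values was not tested. *RPN4* was also the lowest of its group in each of these libraries, at 33.0, 34.6 and 56.5 CPM, which was not tested either. *RPN3* in the remaining groups was 150, 111 and 152 CPM (*gal80Δ* fructose) and 110, 201 and 199 CPM (*gal80Δ* fructose-palatinose) at mid-log. At +10h it was 150, 172 and 95.0 CPM in wild-type fructose-palatinose, 126, 106 and 97.0 CPM in *gal80Δ* fructose and 103, 62.3 and 66.5 CPM in *gal80Δ* fructose-palatinose. At +16h it was 78.3 to 188 CPM.

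**Figure D4:**
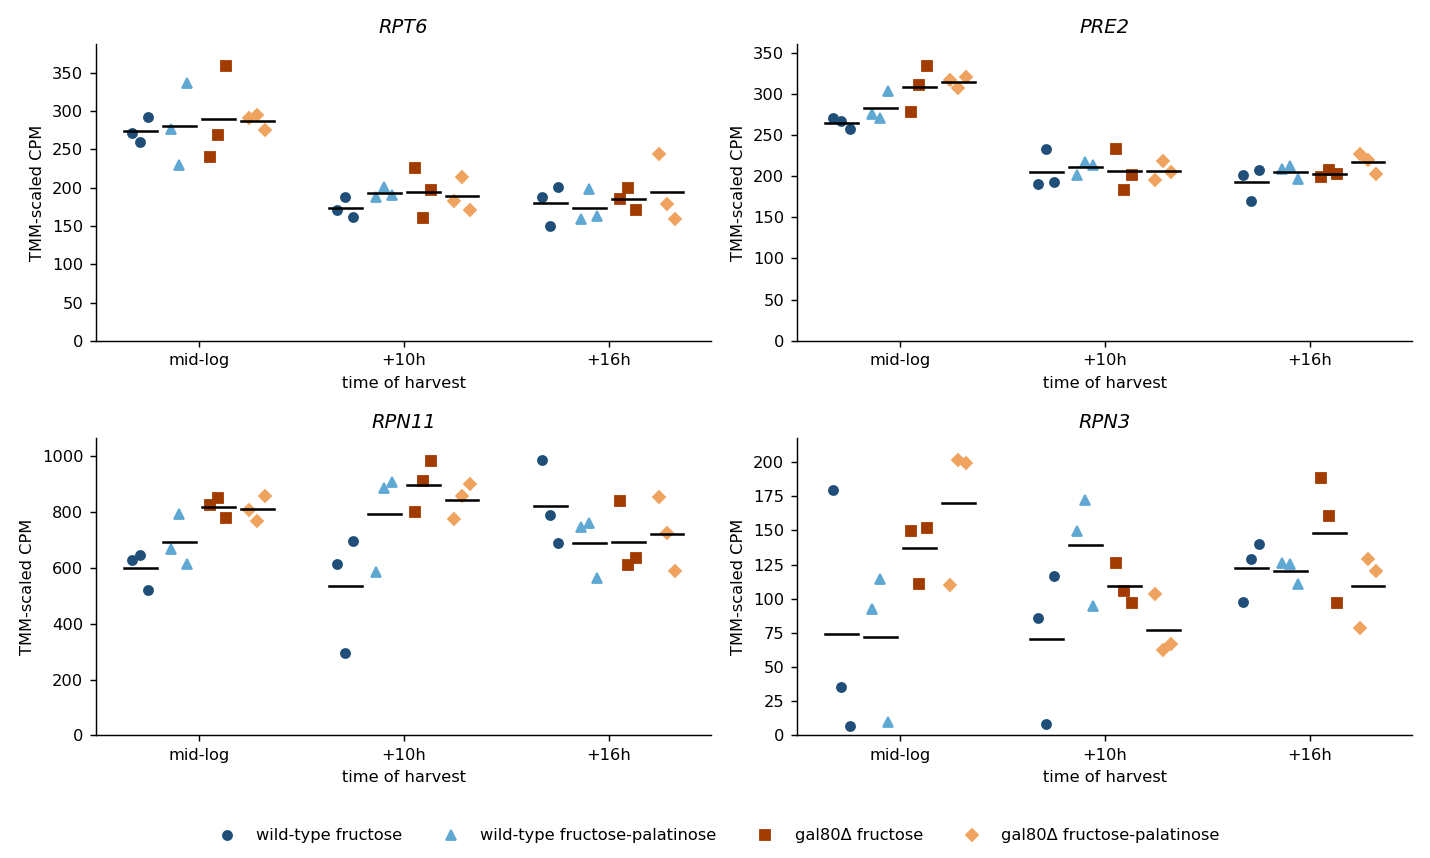
Levels of *RPT6*, *PRE2*, *RPN11* and *RPN3* in each of the 36 libraries in TMM-scaled CPM by time of harvest; symbols are libraries, colours and shapes give strain and medium, and short lines are means of 3. On this scale *RPT6* and *PRE2* were lower at +10h in all 4 conditions. *RPN11* in wild-type fructose at +10h had 1 library at 293 CPM, and *RPN3* had 3 libraries under 10 CPM.

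Some of the other subunit genes were among the steadiest transcripts, and some were not. Of the 31 subunit genes with a mean of at least 50 CPM, 7 lay in the lowest 5% of 3150 such genes by within-group SD, namely *RPT3* (0.08 on the log2 scale), *PRE1* and *PRE2* (each 0.10), *PRE8* (0.11) and *PUP3*, *RPN13* and *RPN7* (each 0.12). In all, 19 of the 31 lay below the middle of that ranking. *PUP2*, an alpha-ring gene, was wider, at 0.41, as were *RPN8* at 0.34, *RPN4* at 0.33 and *PRE6* at 0.32. *PRE4* (0.30), *RPN11* and *RPN1* (each 0.28) and *RPN12* and *RPT4* (each 0.25) lay at percentiles 71.2 to 82.1 of that ranking. In *gal80Δ* fructose at +10h *PUP2* stood at 193, 520 and 301 CPM, *RPN8* at 240, 530 and 343 CPM and *PRE6* at 189, 363 and 240 CPM, the same order of libraries in all 3 genes. The counted end of *PUP2* overlaps *GCN5* on the opposite strand over all of its last 300 bases and that of *RPN8* overlaps *GCD1* over 246; *PRE6* has no such neighbour.

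**Figure D5:**
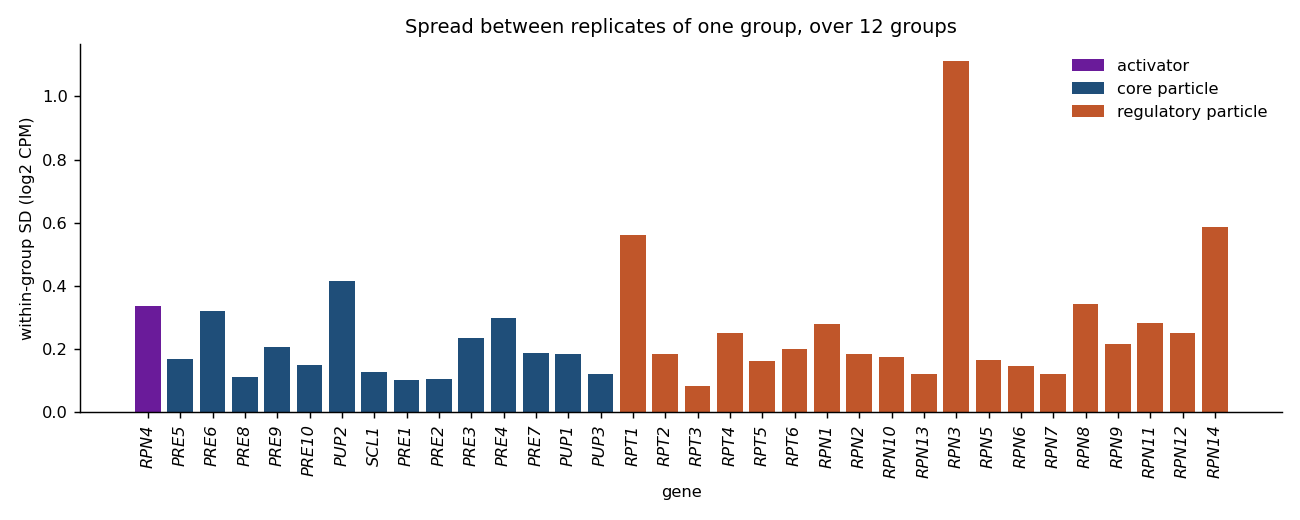
Within-group standard deviation of each gene on the log2 CPM scale, pooled over the 12 groups of 3; bars are coloured by class. *RPN3* stood at 1.11, *RPT3* at 0.08 and *RPN4* at 0.33.

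The levels of *RPT1* and *RPN14* were near the limit of detection. *RPT1*, an ATPase gene of the base, had 7 to 48 counts per library and a mean of 2.26 CPM, whereas the means of the other 5 ATPase genes ran from 141 to 421 CPM. At mid-log it stood at 1.98, 4.10 and 3.42 CPM in wild-type fructose, 1.39, 5.18 and 3.41 CPM in wild-type fructose-palatinose, 2.08, 2.16 and 3.15 CPM in *gal80Δ* fructose and 4.41, 2.94 and 1.79 CPM in *gal80Δ* fructose-palatinose. These values overlapped between all groups. Its later libraries ran from 0.696 to 3.62 CPM, and no change was called.

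The empty row also named *RPT1* lies on the same strand and covers 282 of the last 300 bases of the counted *RPT1* interval (chrXI:174159-175825), where 3′ reads fall. *RPN14* had 2 to 23 counts and a mean of 1.39 CPM, with 0.205 to 2.48 CPM over the libraries. At +10h, where its extremes fell, it stood at 1.88, 0.810 and 1.49 CPM in wild-type fructose, 1.31, 1.26 and 0.205 CPM in wild-type fructose-palatinose, 1.63, 1.61 and 1.61 CPM in *gal80Δ* fructose and 1.27, 1.87 and 2.31 CPM in *gal80Δ* fructose-palatinose. The media overlapped in both strains. *COG7* overlaps all of its last 300 bases on the same strand. Whether these overlaps lowered the counts was not tested, so both levels are uncertain. The lowest mean among the other subunit genes was 79.6 CPM, of *RPN12*.

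Genes that act around the proteasome were counted over the step from mid-log to +10h. Of 14 assembly and accessory factors, 4, 4, 4 and 3 were called higher and 2, 1, 0 and 1 lower, in the order of conditions used above. Of 22 genes for ubiquitin and its delivery 5, 3, 5 and 5 were called higher and 5, 3, 5 and 6 lower. Of 7 genes that control Rpn4, 4, 2, 4 and 3 were called higher and 1, 0, 0 and 0 lower. By library size alone 10, 6, 7 and 5 assembly factors, 9, 7, 8 and 8 ubiquitin genes and 6, 5, 6 and 4 Rpn4 control genes were called higher, and 0, then 3, 3, 3 and 4, then 0 lower. Median log2 fold changes were 0.24, -0.02, 0.23 and 0.14 for assembly factors, 0.09, 0.02, -0.12 and 0.01 for ubiquitin genes and 0.62, 0.37, 0.57 and 0.41 for Rpn4 control genes, against 0.02 to 0.06 over all genes. With TMM 29.1%, 24.5%, 28.9% and 27.4% of all genes were called higher over this step, and 26.0%, 21.2%, 23.7% and 23.2% lower. The TMM counts of assembly factors and ubiquitin genes were near or below these shares. They are therefore no result about these 2 lists. By library size alone more genes were called higher: 2301, 1929, 2192 and 2178 of 5479, with 837, 654, 838 and 744 lower. No test compared these lists with each other, with all genes or with the subunit genes.

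Among assembly and accessory factors *HUL5*, a proteasome-bound ubiquitin ligase, rose by 1.11 to 1.53 on the log2 scale, *SPG5*, a proteasome-interacting protein of stationary phase, by 0.88 to 1.46, and *NAS2*, a chaperone of the base, by 0.66 to 1.30, each called in all 4 conditions. In wild-type fructose-palatinose *SPG5* was not called without replicate A or B (0.58 and 0.93), nor *NAS2* without replicate C (0.54). *HUL5* stood at 30.9, 29.3 and 29.4 CPM at mid-log and 91.5, 79.4 and 86.9 CPM at +10h in wild-type fructose. Its groups did not overlap, and in *gal80Δ* it was also called higher than in wild-type at mid-log, by 0.64 (edgeR adjusted p = 0.0106) in fructose and 0.50 (adjusted p = 0.0384) in fructose-palatinose.

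Among ubiquitin genes the stress-induced conjugating enzyme *UBC5* rose by 1.49 to 2.35 on the log2 scale and the polyubiquitin gene *UBI4* by 1.03 to 1.78. *RPL40B*, which encodes ubiquitin fused to a ribosomal protein, fell, with log2 fold changes from -1.60 to -1.11, and all 3 were called in all 4 conditions. In the same list *RPL40A* (-1.48 to -1.07) and *RPS31* (-1.56 to -1.11) were also called lower in all 4. The mean of *RPS31* went from 12167 to 4336 CPM in wild-type fructose. The mean of *RPL40B* went from 1308 to 478 CPM in wild-type fructose and from 1028 to 340 CPM in *gal80Δ* fructose. Its libraries did not overlap between these times in either strain.

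*UBC5* stood at 65.8, 77.9 and 90.4 CPM at mid-log and 367, 492 and 334 CPM at +10h in wild-type fructose. In wild-type fructose-palatinose it went from 85.7, 84.3 and 92.1 CPM to 252, 251 and 233 CPM. The +10h libraries of the media did not overlap, and the rise was smaller with palatinose by -0.86 ± 0.17 (edgeR adjusted p = 0.00317).

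Among the genes that control Rpn4, *HSF1*, the heat shock factor, rose by 0.64 to 0.90 and was called in all 4 conditions. *UBR2*, the ubiquitin ligase that targets Rpn4 for degradation, rose by 0.54 to 0.75, also in 4. Its call was lost in wild-type fructose without the replicate B library noted above (0.48), in wild-type fructose-palatinose without replicate B (0.46) and in *gal80Δ* fructose-palatinose without replicate C (0.38) or by DESeq2 (0.49). *PDR3*, a drug-resistance regulator that can activate *RPN4*, was called in 3, with 0.26 to 0.83, and in each of these the call was lost when 1 or more of the replicates were left out. It stood at group means of 4.01 to 7.42 CPM, a low level. Of the other genes in this list, *PDR1* was called higher in 2 conditions (0.41 to 0.66). *YAP1* (0.19 to 0.42) and *MUB1* (-0.17 to 0.46) were called in none. *RAD6* was negative in all 4, at -0.60 to -0.36, and called lower in 1.

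At +16h *UBR2* stood at 66.8, 64.1 and 91.1 CPM in wild-type fructose and at 46.7, 58.0 and 35.7 CPM in wild-type fructose-palatinose. In *gal80Δ* it stood at 59.4, 64.9 and 65.4 CPM in fructose and at 91.1, 68.2 and 72.9 CPM in fructose-palatinose. Palatinose went with lower *UBR2* in wild-type (-0.66 ± 0.16, edgeR adjusted p = 0.0107), with no overlap, and not in *gal80Δ* (0.29 ± 0.16, unadjusted p = 0.0872, not called by edgeR), and the difference between strains was 0.95 ± 0.23 (adjusted p = 0.0258). *RPN4* at +16h had a difference of 0.54 ± 0.35 in the same test, which was not called.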

How the data were processed

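The measurements were QuantSeq 3′ REV libraries of 36 yeast cultures, and group and replicate letter came from the labels, which name biological replicates. The authors deposited raw counts per gene and library, made with cutadapt 1.18, HISAT2 2.1.0, SAMtools 1.11 and featureCounts (Subread 2.0.0) on build R64. FastQC 0.11.9, bedtools 2.30.0 and MultiQC 1.13 are also in the submitters' processing notes. Whether counting used strand is not given in the sources used here. Deposited optical density values were used as culture densities. One other per-sample column (1 in all), the authors' own CPM, was not used.

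Tests on these counts used edgeR 4.0.16 (R 4.3.3, limma 3.58.1), with filterByExpr by group (5479 of 5697 genes kept), TMM scaling and 1 quasi-likelihood fit of 36 libraries with 12 group terms. All p-values were adjusted by Benjamini-Hochberg over the genes tested. Calls needed an adjusted p below 0.05 and a log2 fold change above 0.5 in size. The standard error is the log2 fold change divided by the square root of F. The script was tested on simulated data. Alternatives were DESeq2 1.42.0, library size alone, no filter (5679 genes), at least 10 counts in every library (5107 genes), fits of only the groups compared, a replicate block (also one by culture), no fold minimum and leaving out each replicate. Leaving out wild-type fructose +10h replicate B, leaving *RPN3* out of the sums and scaling the sums by library size were added after seeing the data. Python 3.11.15, pandas 2.3.3, numpy 2.4.6 and matplotlib 3.10.9 made sums and figures.

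Values by library (some later times as ranges) are given for *RPN4*, the catalytic genes *PRE2*, *PRE3* and *PUP1*, *RPN11*, *RPT1*, and the genes with the highest or lowest fold change in a family of comparisons. From each of 3 lists up to 3 called genes with the largest changes are described, and some other members are named beside them. *RPT6*, *SSA2*, *PUP2*, *RPN8* and *PRE6* were singled out after their values were seen. The members and lists were chosen with earlier results of these data known. Promoter windows were read from the RefSeq R64 genome, in which all 34 genes were found.

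Deviations of same-lettered libraries from their group means correlated from -0.591 to 0.656 over 60 pairs. In 3 of 20 comparisons every pair exceeded 0.1 (wild-type media at mid-log, strains in fructose-palatinose at +10h, and wild-type fructose-palatinose from mid-log to +10h). These are called the paired comparisons below. The main values came from the fit without a replicate block, also for these 3, and the block was fitted only as an alternative. Totals of 6020770 to 11785148 counts set the precision.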

Additional observations from a re-analysis of the deposited data

Results flagged for a closer look

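*UBR2*, the ubiquitin ligase that targets Rpn4, differed between strains in the effect of palatinose at +16h by 0.95 ± 0.23 on the log2 scale (edgeR adjusted p = 0.0258). In wild-type all 3 fructose-palatinose libraries lay below all 3 fructose libraries, and in *gal80Δ* all 3 lay above. The difference was 0.97 by DESeq2 (adjusted p = 0.00853). It was not called without replicate A (0.85, edgeR adjusted p = 0.443), without replicate C (0.68, adjusted p = 0.413) or with only the groups compared (0.96, adjusted p = 0.0688).

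*UBC5*, a stress-induced ubiquitin-conjugating enzyme, rose less from mid-log to +10h with palatinose than without it in wild-type cells, by -0.86 ± 0.17 (edgeR adjusted p = 0.00317). It was not called without replicate A (-0.83, adjusted p = 0.168), without replicate B (-0.72, adjusted p = 0.358) or with only the groups compared (-0.89, edgeR adjusted p = 0.117). Without wild-type fructose +10h replicate B alone it was -0.67 (edgeR adjusted p = 0.0159) and still called.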

How the results depend on the processing

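Of the counts and ratios compared with alternatives, 564 values kept their level and 42 moved. Most of the counts were 0 in the main fit, and a 0 that stayed 0 was scored as kept. The 564 is therefore no measure of how steady the called changes were. The subunit median from mid-log to +10h in wild-type fructose was -0.19 with TMM and 0.17 with library size alone. From mid-log to +10h, library size alone gave 3 subunit genes higher in wild-type fructose (0 with TMM) and 0 lower in every condition. With no fold minimum 8, 13, 16 and 12 were lower (2, 7, 9 and 4 with it) in wild-type fructose, wild-type fructose-palatinose, *gal80Δ* fructose and *gal80Δ* fructose-palatinose. In wild-type fructose, fitting only the groups compared gave 1 higher, and at least 10 counts in every library, or a replicate block by culture, gave 1 lower. Leaving out replicates gave 0 to 1 higher there, and 1 to 4, 4 to 6, 5 to 10 and 2 to 5 lower; the 4 came without wild-type fructose +10h replicate B. From +10h to +16h in wild-type fructose 1 gene, *RPN11*, was higher by DESeq2, with no filter and with at least 10 counts in every library, and 0 to 1 with replicates left out. With no fold minimum 2 were lower in wild-type fructose, 2 in *gal80Δ* fructose and 1 in *gal80Δ* fructose-palatinose, where library size and the block by culture also gave 1; leaving out replicates gave 0 to 1 in both *gal80Δ* media. Between media in wild-type at +10h DESeq2 gave 1 higher, and library size and no fold minimum each gave 1 lower, with 0 to 1 when replicates were left out. Between strains, *RPN11* in fructose at +10h was lost (0 called) with only the groups compared and without each replicate (0 to 0). With no fold minimum 1 was higher in fructose at +16h, and only the groups compared gave 1 lower, *RPN3*, in fructose-palatinose at +10h. DESeq2 called 1, *PRE8*, in the wild-type difference between media from +10h to +16h. The core to regulatory change in wild-type fructose was -0.077 without the most abundant genes. The cause of these moves was not tested, apart from the fold minimum and the number of libraries, which are the settings themselves.

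In a fit with a replicate block, the paired comparisons had 0, 0 and 7 subunit genes called lower, as without it, and the block changed no other count by more than 1.5 times. Counts were low for *RPT1* (7 to 48) and *RPN14* (2 to 23), and the cause was not tested.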
